A study of Mus musculus with 35 samples.

Results

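Wounds of vehicle-treated Col5a1CKO mice were compared with wounds of vehicle-treated wild-type (WT) mice at day 14 after excision of the dorsal skin, with 4 wounds in each group. These 8 libraries were chosen by their genotype and treatment labels from the 35 libraries of the series. Col5a1CKO mice carried the tamoxifen-inducible transgene Col1a2CreERT, in which an enhancer of the collagen I gene Col1a2 directs Cre to fibroblasts, and were Col5a1 fl/fl. WT mice were Cre-negative littermates that were also Col5a1 fl/fl. Both groups received tamoxifen, a full-thickness skin excision and daily intraperitoneal PBS, which served as the vehicle of cilengitide, an inhibitor of the integrins αvβ3 and αvβ5. The mice were adults of both sexes, and RNA came from a punch of the middle of the wound, so that each library mixed the cells present there. The wounds are numbered 1 to 4 in each group. Their titles carry different numbers, but the labels do not state that they came from separate animals. The study says that its n stands for separate biological replicates and gives 4 per group here. The p-values measure the spread between these samples. In such bulk RNA, fewer cells of a type and less RNA per cell cannot be told apart.

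Collagen V is a minor fibril-forming collagen that co-assembles with collagen I and starts and limits the growth of its fibrils. Its pro-alpha1 chain is encoded by Col5a1, and loss of a functional copy of this gene is a known cause of classical Ehlers-Danlos syndrome, in which skin is fragile and scars are wide. As a skin wound heals, neutrophils and monocytes enter, fibroblasts build a matrix and become contractile, and keratinocytes migrate from the edge, cover the bed and then stratify again. The keratins made along the way tell these states apart: Krt5 and Krt14 belong to the basal layer, Krt1 and Krt10 to the layers above it, and Krt6a, Krt6b, Krt16 and Krt17 to keratinocytes activated by injury.

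The 8 libraries held 51211600 to 66605505 counts, and 16840 to 17495 genes had at least 1 count in each. Values are given in CPM, the counts scaled to the library size after TMM normalization. Spearman correlations between libraries were 0.949 to 0.973 within WT, 0.873 to 0.965 within Col5a1CKO and 0.668 to 0.846 between the groups. The first principal component held 71.1% of the variance and separated the groups, and the second held 12.4% and set Col5a1CKO 4 (112) apart from Col5a1CKO 2 (-86.8), with the others between -27.7 and 22.7. Xist RNA, made from the inactive X chromosome, was at 138 and 167 CPM in WT 1 and WT 3 and at most 1.49 CPM in the other libraries, and RNA of 4 Y-linked genes was at 183 to 364 CPM in WT 2, WT 4 and Col5a1CKO 1, 3 and 4. Col5a1CKO 2 had 0 counts of the Y-linked genes and 0.910 CPM of Xist, so that neither mark of sex was present there, and the calls of each gene list were also made without it. The log2 difference between GC-rich and GC-poor genes was -0.02 to 0.14 in WT and -0.51 to -0.20 in Col5a1CKO libraries, so base composition moved with genotype and its part in the results was not tested.

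Col5a1, the targeted gene (chr2:27741945-27895034, plus strand, NCBI37/mm9), stood at 2606, 2560.1, 465 and 452 CPM in WT 1 to 4 and 1286, 570.0, 597 and 245 CPM in Col5a1CKO 1 to 4. WT 1 and WT 2 lay above every Col5a1CKO wound, and WT 3 and WT 4 lay within the Col5a1CKO range. Its log2 fold change was -1.17 (SE 0.76, edgeR adjusted p = 0.232), and comparing the mean CPM of the groups by exact permutation (2-sided) gave p = 0.3143. The counts cover all exons of the gene, and the exons between the loxP sites are not given in the sources used here. Cells in which Cre was not active kept an intact gene. The level of Col5a1 in the wound is therefore an incomplete check of the deletion. The study itself reports a significant decrease of Col5a1 in Col5a1CKO skin at day 14 by PCR, and by RNA-seq in larger groups than these.

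Col1a1, the main chain of collagen I (chr11:94797538-94814356, plus strand), stood at 15202, 14621, 3151 and 2808 CPM in WT 1 to 4 and 22629.8, 26498, 15560.4 and 5863 CPM in Col5a1CKO 1 to 4. It varied with Col5a1 among the WT wounds, being high in WT 1 and WT 2 and low in WT 3 and WT 4. The exact test of Col1a1 gave p = 0.1429. The ratio of Col5a1 to Col1a1, a measure known from an earlier treatment of these data, was 0.171, 0.175, 0.148 and 0.161 in WT 1 to 4 and 0.0568, 0.0215, 0.0383 and 0.0417 in Col5a1CKO 1 to 4. These ratios did not overlap, and their exact permutation p was 0.0286, the smallest that 4 against 4 wounds can give. The ratio falls with a lower Col5a1 and also with a higher Col1a1. WT 3 and WT 4 had Col5a1 within the Col5a1CKO range but Col1a1 below every Col5a1CKO wound. The ratio is therefore not a measure of Col5a1 alone. Adjusted over the 3 exact tests, the p-values were 0.3143 for Col5a1, 0.2144 for Col1a1 and 0.0858 for the ratio. The direction of the Col5a1 difference rested on WT 1 and WT 2: among the wounds with title numbers 4192 to 4223, which leave 2 WT and 3 Col5a1CKO, its log2 fold change was 0.08 (edgeR adjusted p = 0.918), and with the range of title numbers as a covariate it was -0.32 (edgeR adjusted p = 0.539).

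**Figure D1:**
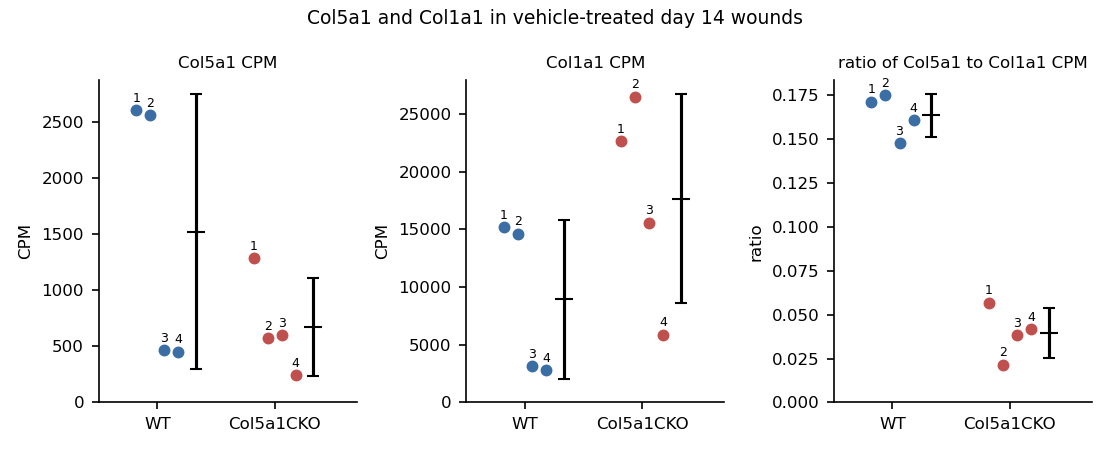
CPM of Col5a1 and Col1a1 and their ratio in each vehicle-treated wound, with wounds numbered 1 to 4 and the mean ± SD of 4 wounds beside each group. The Col5a1 values overlap between genotypes, whereas the ratio lies between 0.148 and 0.175 in WT and between 0.0215 and 0.0568 in Col5a1CKO wounds. The ratio also depends on Col1a1, which is lower in WT 3 and WT 4 than in every Col5a1CKO wound.

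Of 15434 genes tested with edgeR, 2706 (17.5%) rose and 2065 (13.4%) fell in the Col5a1CKO wounds, by 2-fold or more and with adjusted p-values under 0.05. The change was at least 8-fold for 622 of the higher and 728 of the lower genes, and at least 32-fold for 157 and 318. The median over all genes tested was 0.02 on the log2 scale. All 4 Col5a1CKO wounds lay above all 4 WT wounds for 22.9% of the genes tested and below them for 26.8%. This held for 2426 of the genes called higher and 2001 of those called lower. Counts of list members below are read against these shares. Each list is followed by the refits that moved its count by over 1.5 times, among those without 1 library (each named library being left out on its own), those within title numbers 4192 to 4223 (2 WT against 3 Col5a1CKO wounds), those with the title number range as a covariate and those with DESeq2. Of the 274 genes named, 52 lost their edgeR call within title numbers 4192 to 4223, where 5 wounds remain, Cxcl2, Dcn, Jup, Krt1, Krt10, Krt5 and Lor among them, and 25 lost it with the presence of Y-linked RNA as a covariate, Krt5 and Mki67 among them.

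The 12 genes that fell with the smallest adjusted p-values, without overlap of the groups, included several that are expressed in the epidermis. Alox12e, an epidermal lipoxygenase (chr11:70129112-70136130, minus strand), stood at 236, 154, 150.2 and 196 CPM in WT 1 to 4 and 0.0666, 0.1103, 0.0425 and 0.128 CPM in Col5a1CKO 1 to 4. It fell by 11.004 on the log2 scale (SE 0.40, edgeR adjusted p = 7.01e-05). Cd207, which encodes langerin of the Langerhans cells of the epidermis (chr6:83621201-83627851, minus strand), stood at 26.1, 15.7, 28.8 and 21.8 CPM in WT 1 to 4 and 0.399, 0.303, 0.1701 and 0.276 CPM in Col5a1CKO 1 to 4. Skint5, of a family expressed in epidermis and thymus (chr4:113150496-113672108, minus strand), lay at 26.6 to 63.2 CPM in WT wounds and 0.0414 to 0.149 CPM in Col5a1CKO wounds, and Cd207 and Skint5 fell, with log2 fold changes of -6.31 and -9.10 (edgeR adjusted p = 0.000287 for each). Bcl11b, a transcription factor of skin and T cells, fell less far, from 118 to 167 CPM in WT to 14.2 to 18.7 CPM in Col5a1CKO wounds. 2300005B03Rik, Rarres1, Extl1, A030009H04Rik, Lpar3, Acot1, Bcl11b, Trim62 and Usp20 fell, with log2 fold changes of -9.90, -5.88, -5.43, -5.34, -4.61, -3.95, -3.13, -2.56 and -2.23 (edgeR adjusted p between 0.000287 and 0.000301).

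The genes that rose with the smallest adjusted p were a mixed group. Plscr1, a phospholipid scramblase induced by interferon, stood at 3.66, 3.65, 4.11 and 2.73 CPM in WT 1 to 4 and 29.2, 24.6, 40.1 and 34.6 CPM in Col5a1CKO 1 to 4. It rose by 3.18 on the log2 scale (SE 0.21, edgeR adjusted p = 0.000322). Psen2, Emb, St3gal1, Rp2h, Slc25a36, Ikzf1, AW112010, Kcnk13 and Mdfic rose by 1.84, 2.44, 2.75, 1.76, 1.20, 2.22, 2.72, 2.31 and 1.41 on the log2 scale (edgeR adjusted p between 0.000322 and 0.000566). Ikzf1 encodes a transcription factor of blood cells and Emb the membrane protein embigin. Car4, a carbonic anhydrase (chr11:84771288-84779546, plus strand), stood at 0.123, 0.0537, 0.0538 and 0.03596 CPM in WT 1 to 4 and 17.3, 5.03, 19.97 and 21.00 CPM in Col5a1CKO 1 to 4, and rose by 7.82 on the log2 scale (SE 0.65, edgeR adjusted p = 0.000424). Prm1, a protamine of sperm chromatin, had 1 count in the 4 WT libraries and 748 in the 4 Col5a1CKO libraries, a ratio per depth of 766 with a 95% counting interval of 137 to 30312.0.

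Where the mean over the 8 libraries reached 5 CPM, the 8 largest changes upward included Saa3 and Hp. Saa3, an acute-phase serum amyloid A, stood at 1.23, 5.55, 5.35 and 0.971 CPM in WT 1 to 4 and 2604, 1228, 3314 and 256 CPM in Col5a1CKO 1 to 4. Hp, which encodes haptoglobin (chr8:112099030-112103072, minus strand), stood at 3.35, 5.94, 4.34 and 1.73 CPM in WT 1 to 4 and 1370.2, 403, 1465 and 454 CPM in Col5a1CKO 1 to 4. No WT wound reached the lowest Col5a1CKO wound for either, and Saa3 and Hp rose by 9.14 and 7.91 on the log2 scale (edgeR adjusted p between 0.000566 and 0.00131). Retnlg, Cxcl3, 9830107B12Rik, Stfa2l1, Gm5483 and Nos2 rose by 9.12, 9.10, 8.93, 8.54, 8.33 and 7.95 on the log2 scale (edgeR adjusted p between 0.00314 and 0.00813). Retnlg is a resistin-like gene of neutrophils, and Stfa2l1 and Gm5483 are stefin A genes of near-identical sequence whose counts may be shared.

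With the same minimum, the 8 largest changes downward were in Slurp1, Krtap3-3, Krtap16-8, Dsg4, Krt35, Krt77, Fcgbp and Alox12e. Slurp1, a secreted protein of the upper epidermis (chr15:74557074-74558456, minus strand), stood at 85.5, 43.00, 167 and 142 CPM in WT 1 to 4 and 0.0333, 0, 0 and 0 CPM in Col5a1CKO 1 to 4. It had 2 counts over the 4 Col5a1CKO libraries, a ratio per depth of 12268 with a 95% counting interval of 3396 to 101305. Fcgbp, an IgG Fc-binding protein gene, lay at 283 to 722 CPM in WT wounds and 0 to 0.489 CPM in Col5a1CKO wounds. Krt77 and Fcgbp fell, with log2 fold changes of -11.20 and -11.09 (edgeR adjusted p between 0.000779 and 0.00102). The hair genes Krtap3-3, Krtap16-8 and Dsg4 also had 2 counts each over the 4 Col5a1CKO libraries, with ratios of 5231 (95% counting interval 1448 to 43197), 4265 (1180.3 to 35223) and 3560 (985 to 29400.2), but their WT values were spread widely, highest in WT 2 and WT 4 and under 1 CPM in WT 1.

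**Figure D2:**
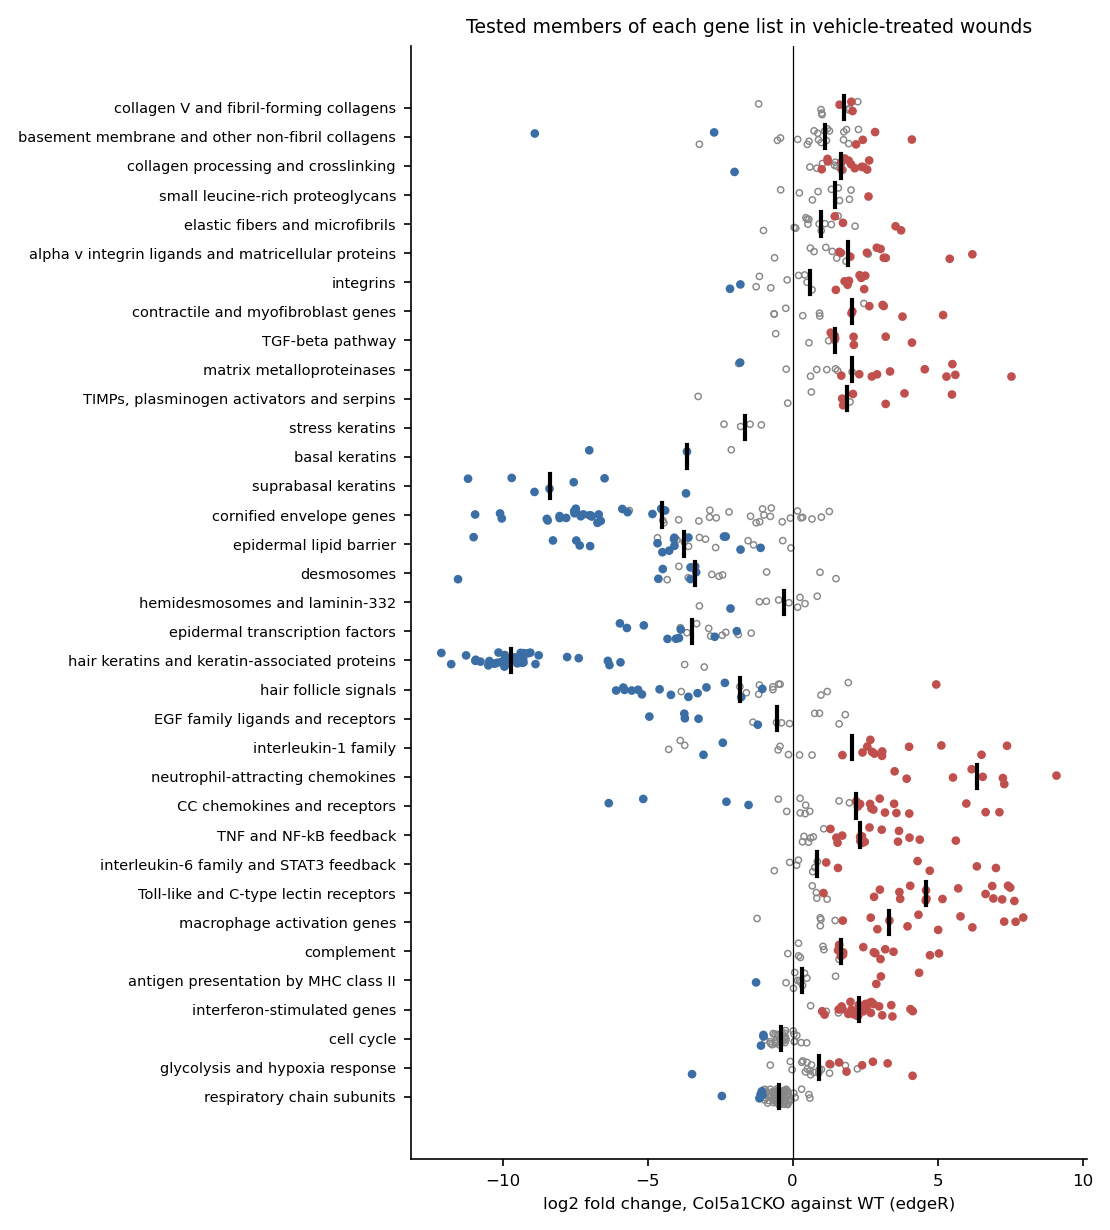
Log2 fold change (Col5a1CKO against WT, edgeR) of every tested member of each gene list, with filled red points called higher, filled blue points called lower, open points not called and a black bar at the median of the list. Epidermal and hair lists lie to the left, with medians down to -9.73, and inflammatory lists to the right, with medians up to 6.36.

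Keratins of the upper epidermis were far lower in the Col5a1CKO wounds. Krt10, the type I keratin of the layers above the basal one (chr11:99246568-99250678, minus strand), stood at 37174, 19400.1, 41279 and 39112 CPM in WT 1 to 4 and 76.4, 5.31, 8.48 and 319 CPM in Col5a1CKO 1 to 4. Its partner Krt1 stood at 36732, 20863, 36316 and 32377 CPM in WT 1 to 4 and 79.1, 4.096, 4.19 and 586 CPM in Col5a1CKO 1 to 4. For both, every Col5a1CKO wound lay far below every WT wound, and Col5a1CKO 4 was the highest of its group. All 7 suprabasal keratins tested fell, against 13.4% lower over all genes, with a median of -8.39. Krt77, Krt79, Krt2, Krt10, Krt1 and Krt78 fell, with log2 fold changes of -11.20, -9.69, -8.90, -8.39, -7.55 and -6.49 (edgeR adjusted p between 0.000694 and 0.0185). Krt77 and Krt79 were each at most 4.21 CPM in every Col5a1CKO wound and at least 926 CPM in every WT wound. Krt79 is also counted among the sebaceous gland markers below. For the suprabasal keratins, the number lower was 3 within title numbers 4192 to 4223.

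Of the basal keratins, Krt5 stood at 6379.7, 5382, 7069.8 and 5810.4 CPM in WT 1 to 4 and 468, 19.1, 52.6 and 1429.7 CPM in Col5a1CKO 1 to 4. It fell by 3.65 on the log2 scale (SE 1.25, edgeR adjusted p = 0.0431), without overlap. Krt15, a keratin of basal and hair follicle stem cells, lay at 359.6 to 1090.4 CPM in WT wounds and 0.648 to 14.8 CPM in Col5a1CKO wounds and fell by 7.01 on the log2 scale (SE 1.21, edgeR adjusted p = 0.00314). Krt14, the partner of Krt5, had a log2 fold change of -2.12 (SE 1.51, edgeR adjusted p = 0.274). Krt5 lost its edgeR call without WT 1, WT 2, WT 3, WT 4, Col5a1CKO 1 or Col5a1CKO 3 (adjusted p up to 0.0949). The call of Krt15 held in each of these refits. For the 3 basal keratins, the number lower was 1 without WT 1, WT 2, WT 3, WT 4, Col5a1CKO 1 or Col5a1CKO 3, within title numbers 4192 to 4223 or with the title number range as a covariate.

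The 4 keratins of activated keratinocytes had negative log2 fold changes and were not called. Krt16 (chr11:100107405-100110276, minus strand) stood at 5589.5, 5508, 3105 and 1076 CPM in WT 1 to 4 and 293, 8.15, 30.1 and 2626 CPM in Col5a1CKO 1 to 4. Krt17 (chr11:100117531-100122343, minus strand) stood at 1716, 2201, 2274 and 1443 CPM in WT 1 to 4 and 284, 6.74, 17.8 and 1895 CPM in Col5a1CKO 1 to 4. In both, Col5a1CKO 4 lay inside the WT range and Col5a1CKO 1 to 3 lay below it. Krt6a (chr15:101520363-101524738, minus strand) and Krt6b (chr15:101506465-101510720, minus strand), which are close copies and may share reads, lay at 494 to 3396 CPM in WT wounds and 7.94 to 2506 CPM in Col5a1CKO wounds for Krt6a and at 498 to 4589 CPM in WT wounds and 8.45 to 4775 CPM in Col5a1CKO wounds for Krt6b. Krt6b of Col5a1CKO 4 was above every WT wound. None of the 4 was called: Krt6a had a log2 fold change of -1.47 (SE 1.51, edgeR adjusted p = 0.443), Krt6b had a log2 fold change of -1.08 (SE 1.66, edgeR adjusted p = 0.613), Krt16 had a log2 fold change of -2.37 (SE 1.56, edgeR adjusted p = 0.238) and Krt17 had a log2 fold change of -1.79 (SE 1.45, edgeR adjusted p = 0.333). Without Col5a1CKO 4, 2 of the 4 were called lower. Within title numbers 4192 to 4223 the log2 fold change of Krt6b was 0.50 and not called.

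Genes of the cornified envelope, the cross-linked shell of dead surface keratinocytes, included many that fell. Loricrin (Lor), its main protein, stood at 2314, 1532, 2311 and 2890.4 CPM in WT 1 to 4 and 4.01, 0.0965, 0.1701 and 21.1 CPM in Col5a1CKO 1 to 4. Of 50 tested, 25 fell and none rose, with a median of -4.51, against 13.4% lower over all genes. Crnn, Lce1m, Flg2, Lor, Tchh and Lce1l fell, with log2 fold changes of -10.95, -10.09, -10.03, -8.48, -8.45 and -8.04 (edgeR adjusted p between 0.001003 and 0.00829). Lce1l and Lce1m belong to a cluster of similar genes and their counts are uncertain. For the cornified envelope, the number lower was 10 within title numbers 4192 to 4223 and 40 without Col5a1CKO 4. Genes of the epidermal lipid barrier, which seals the surface against water, had 16 of 27 lower and none higher, with a median of -3.74. Alox12e, Fa2h, Elovl3, Scd3, Awat1 and Aloxe3 fell, with log2 fold changes of -11.004, -8.27, -7.46, -7.34, -6.98 and -4.66 (edgeR adjusted p between 7.01e-05 and 0.0203), and several of these (Elovl3, Scd3 and Awat1) are also made by sebaceous glands. For the lipid barrier, the number lower was 9 within title numbers 4192 to 4223.

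Genes of adhesion between keratinocytes were among those that fell. Jup, plakoglobin of the desmosomes, stood at 2094, 1831, 1964 and 2000.0 CPM in WT 1 to 4 and 103, 35.5, 29.5 and 519 CPM in Col5a1CKO 1 to 4. Of 17 desmosome genes, 7 fell and none rose, against 13.4% lower and 17.5% higher over all genes, with a median of -3.36. Ppl, Evpl, Jup, Pkp3 and Dsg1c fell, with log2 fold changes of -4.63, -4.48, -3.52, -3.36 and -3.52 (edgeR adjusted p between 0.0191 and 0.0437), beside Dsg4 of the hair. Evpl lost its edgeR call without WT 1, WT 2, WT 3, WT 4 or Col5a1CKO 1 (adjusted p up to 0.07698), as did Pkp3 without WT 1, WT 2, WT 3, WT 4, Col5a1CKO 1, Col5a1CKO 2 or Col5a1CKO 3 (adjusted p up to 0.1003), Dsg1c without WT 1, WT 3, WT 4, Col5a1CKO 1, Col5a1CKO 2 or Col5a1CKO 3 (adjusted p up to 0.0801), Jup without Col5a1CKO 1 (adjusted p up to 0.0524) and Ppl without WT 3 or Col5a1CKO 1 (adjusted p up to 0.068). For the desmosomes, the number higher was 1 without WT 4 or with DESeq2 and the number lower was 2 without Col5a1CKO 1 or within title numbers 4192 to 4223, 3 without WT 3, 4 without WT 1 or WT 4, 12 with DESeq2 and 14 without Col5a1CKO 4. Of 10 genes of the hemidesmosomes and laminin-332, which bind basal cells to the basement membrane, 1 fell, against 13.4% lower over all genes. Their median was -0.31. The 1 gene that fell was Itgb4, the integrin β4 chain, at 189 to 218 CPM in WT wounds and 11.4 to 113 CPM in Col5a1CKO wounds. Itgb4 fell by 2.16 on the log2 scale (SE 0.66, edgeR adjusted p = 0.0292), and its edgeR call was lost without WT 2, WT 3, Col5a1CKO 1 or Col5a1CKO 2 (adjusted p up to 0.0685). For these 10 genes, the number lower was 0 without WT 2, WT 3, Col5a1CKO 1 or Col5a1CKO 2 or within title numbers 4192 to 4223 and 3 without Col5a1CKO 4 or with DESeq2.

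Transcription factors of the epidermis fell in 9 of 18 cases, against 13.4% lower over all genes, with a median of -3.48. Gata3, which acts in epidermal and hair follicle differentiation, stood at 181, 139.9, 199 and 263 CPM in WT 1 to 4 and 3.35, 1.79, 1.68 and 5.78 CPM in Col5a1CKO 1 to 4. Its Col5a1CKO values were all far under the lowest WT value. Gata3, Barx2, Ovol2, Grhl1, Tfap2a and Grhl2 fell, with log2 fold changes of -5.96, -5.72, -5.13, -4.32, -4.02 and -3.92 (edgeR adjusted p between 0.000456 and 0.0378). Grhl1 lost its edgeR call without WT 1, WT 2, WT 3, WT 4 or Col5a1CKO 1 (adjusted p up to 0.0776), as did Grhl2 without WT 1, WT 2, WT 3, WT 4, Col5a1CKO 1 or Col5a1CKO 3 (adjusted p up to 0.0892). For these factors, the number lower was 4 within title numbers 4192 to 4223, 16 with DESeq2 and 18 without Col5a1CKO 4.

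The 8 markers fixed for keratinocytes moved with these lists. Their summed level was 63776, 44003, 64236 and 56871 CPM in WT 1 to 4 and 1976, 75.1, 238 and 13930.5 CPM in Col5a1CKO 1 to 4. Of the 8, 4 fell, against 13.4% lower over all genes. Krt10, Epcam, Krt5 and Cdh1 fell, with log2 fold changes of -8.39, -5.45, -3.65 and -3.39 (edgeR adjusted p between 0.00191 and 0.0431). Epcam and Cdh1 encode epithelial adhesion proteins. Cdh1 lost its edgeR call without Col5a1CKO 1 (adjusted p up to 0.0529). The lists above share genes with these markers, and the part that the number of keratinocytes had in any of them was not tested. Col5a1CKO 4 had the highest level of every epidermal list among its group, as the plot of summed epidermal lists shows. For the keratinocyte markers, the number lower was 1 within title numbers 4192 to 4223, 2 without Col5a1CKO 1 and 8 without Col5a1CKO 4.

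**Figure D3:**
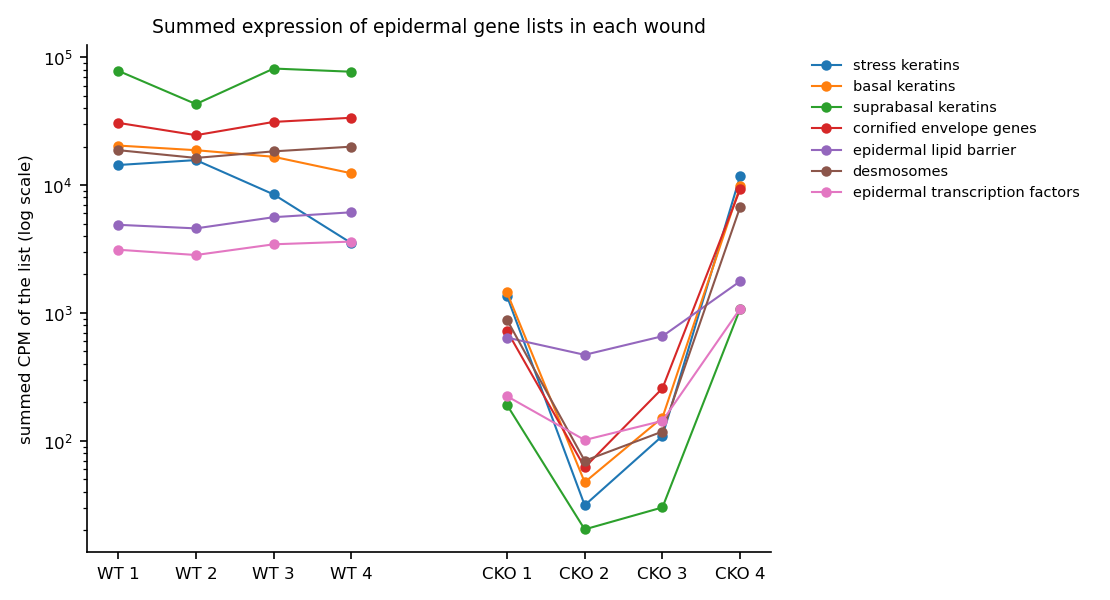
Summed CPM of 7 epidermal gene lists in each wound on a log axis, with 1 colour per list and lines joining the values of a list within a genotype, whose wounds have no order. The WT wounds lie between 2838 and 81628 CPM, and Col5a1CKO 4 lies above the other Col5a1CKO wounds in every list.

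Hair follicle and gland genes were lower too. Of 75 hair keratin and keratin-associated protein genes, 37 passed the filter on low counts, through WT libraries, and 35 of these were called lower, which by this filter is a description and not support. For these genes, the number lower was 54 without Col5a1CKO 1, 55 without Col5a1CKO 2, 61 without Col5a1CKO 4 and 65 without WT 1. The number that passed the filter also changed between these refits. Krt27, of the inner root sheath, stood at 2.85, 989, 74.96 and 1144 CPM in WT 1 to 4 and 0.766, 0.207, 0.0851 and 0.191 CPM in Col5a1CKO 1 to 4. It was high in WT 2 and WT 4, low in WT 1 and WT 3, and lowest in the Col5a1CKO wounds. Krtap3-3, Krtap16-8, Krt35, Krt73, Krt26 and Krt27 fell, with log2 fold changes of -12.12, -11.78, -11.26, -10.94, -10.93 and -10.76 (edgeR adjusted p between 0.00279 and 0.00518). Of 27 genes that signal in or mark the hair follicle, 14 fell and 1 rose, against 13.4% lower and 17.5% higher over all genes. Sox21, Dlx3, Shh, Lhx2, Hoxc13 and Lgr6 fell, with log2 fold changes of -6.09, -5.84, -5.80, -5.55, -5.33 and -5.20 (edgeR adjusted p between 0.000737 and 0.0262). Lhx2 and Lgr6 mark stem cells of the follicle, and Shh drives its growth. Shh lost its edgeR call without WT 4, Col5a1CKO 1, Col5a1CKO 3 or Col5a1CKO 4 (adjusted p up to 0.0741). For this list, the number lower was 6 within title numbers 4192 to 4223.

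Sebaceous gland markers fell in 6 of 7 cases, against 13.4% lower over all genes, and the other gene, Soat1, rose. Far2, which makes fatty alcohols for wax esters, stood at 14.1, 43.4, 34.5 and 40.5 CPM in WT 1 to 4 and 0.449, 0.9102, 0.5103 and 0.872 CPM in Col5a1CKO 1 to 4. Krt79, Elovl3, Scd3, Awat1, Far2 and Awat2 fell, with log2 fold changes of -9.69, -7.46, -7.34, -6.98, -5.59 and -4.68 (edgeR adjusted p between 0.000424 and 0.00168), whereas Soat1, an enzyme of cholesterol ester storage also made by macrophages, rose by 1.68 on the log2 scale (SE 0.25, edgeR adjusted p = 0.00177). Pigment cell genes fell too. Dct, of melanin synthesis, stood at 4.999, 96.3, 17.9 and 202 CPM in WT 1 to 4 and 0.2996, 0.0414, 0 and 0 CPM in Col5a1CKO 1 to 4, and Dct, Tyrp1, Mlana and Pmel fell, with log2 fold changes of -9.77, -9.38, -7.97 and -6.24 (edgeR adjusted p between 0.00306 and 0.0103). Dct was highest in WT 2 and WT 4, as hair genes were. It passed the filter on low counts through WT libraries, so its call is a description and not support. These 4 were the called members among 9 markers of melanocytes and Schwann cells, and none of those 9 was called higher. The median of the 9 was 0.23. For the 9 markers, the number higher was 1 with DESeq2 and 2 without Col5a1CKO 4.

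The single member of the hair follicle list that rose was Fgf7, keratinocyte growth factor, made by fibroblasts and acting on epithelium (chr2:125860394-125916921, plus strand). It stood at 2.54, 3.096, 3.21 and 3.65 CPM in WT 1 to 4 and 147, 87.6, 121 and 32.1 CPM in Col5a1CKO 1 to 4. Every Col5a1CKO wound was above every WT wound, and Fgf7 rose by 4.95 on the log2 scale (SE 0.48, edgeR adjusted p = 0.000609). Of 13 EGF family ligands and receptors, 5 fell and none rose, against 13.4% lower and 17.5% higher over all genes. Their median was -0.56. Nrg2, Btc, Erbb3, Erbb2 and Ereg fell, with log2 fold changes of -4.94, -3.74, -3.72, -3.24 and -1.20 (edgeR adjusted p between 0.000626 and 0.005403). Erbb2 and Erbb3 are receptors of this family and lay at 157 to 217 CPM in WT wounds and 10.8 to 30.1 CPM in Col5a1CKO wounds for Erbb2 and at 98.9 to 131 CPM in WT wounds and 1.74 to 20.9 CPM in Col5a1CKO wounds for Erbb3, and Ereg and Btc encode the ligands epiregulin and betacellulin. For the EGF family, the number higher was 1 without WT 2, Col5a1CKO 2 or Col5a1CKO 3, within title numbers 4192 to 4223 or with the title number range as a covariate and 2 with DESeq2.

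The lists of inflammatory genes held many that rose. The chemokines that draw neutrophils through Cxcr2, the mediators of NF-kB feedback and the interferon-stimulated genes are each known to be switched on by factors that bind short DNA motifs near the start of the gene. RefSeq promoter sequences (250 bases before the start, build GRCm38.p6) were found for 10819 of the 15434 genes tested, and both strands were searched. A κB motif lay in 8.94% of them, in 11.4% of the genes called higher and in 8.60% of those called lower. It lay in 3 of 7 promoters of the list of neutrophil chemokines and their receptors (42.9%). In the TNF and NF-kB list it lay in 8 of 18 promoters (44.4%). The core GAAANNGAA of the interferon-stimulated response element lay in 6.25% of all promoters, in 8.72% of the genes called higher, in 5.16% of those called lower and in 14 of 22 promoters of interferon-stimulated genes (63.6%). Other motifs were also more frequent in these lists than in all promoters. The AP-1 letters TGANTCA lay in 22.7% and the TATA letters TATAAA in 31.8% of interferon-stimulated gene promoters, against 5.11% and 7.43% of all promoters. A κB motif lay in 27.3% of interferon-stimulated gene promoters. TATAAA lay in 28.6% of the promoters of the neutrophil chemokine and receptor list and 22.2% of those of the TNF and NF-kB list. A match is a description and not a site of binding. The last 100 bases before the start are shown, 5′ to 3′ on the strand of the gene, for the 3 neutrophil chemokines with a κB match and for Oas3 and Isg15, which were taken from 4 interferon-stimulated genes looked at because they hold matches there (Rsad2 holds its single match farther away and Oasl1 holds none), with matches within the shown bases in capitals.
Cxcl1 (chr5:90891145-90891244, plus strand): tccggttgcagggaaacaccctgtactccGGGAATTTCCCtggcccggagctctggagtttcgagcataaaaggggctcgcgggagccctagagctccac
Cxcl2 (chr5:90903799-90903898, plus strand): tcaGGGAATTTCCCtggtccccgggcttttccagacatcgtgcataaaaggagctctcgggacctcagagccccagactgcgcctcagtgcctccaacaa
Cxcl3 (chr5:90786001-90786100, plus strand): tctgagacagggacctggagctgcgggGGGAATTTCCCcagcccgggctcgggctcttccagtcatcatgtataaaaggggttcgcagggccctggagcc
Oas3 (chr5:120777660-120777759, minus strand): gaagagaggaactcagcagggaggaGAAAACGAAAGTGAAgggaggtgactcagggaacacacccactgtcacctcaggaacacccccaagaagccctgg
Isg15 (chr4:156200819-156200918, minus strand): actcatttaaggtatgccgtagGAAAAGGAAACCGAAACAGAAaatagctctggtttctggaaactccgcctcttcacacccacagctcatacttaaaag
The 3 chemokines share the same κB letters, at 71 to 97 bases before the start.

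All 8 neutrophil-attracting chemokines and receptors tested were higher, against 17.5% higher over all genes, with a median of 6.36. Cxcl1 stood at 2.66, 3.88, 2.31 and 0.396 CPM in WT 1 to 4 and 116, 80.4, 412 and 262 CPM in Col5a1CKO 1 to 4. Cxcl2 stood at 3.32, 40.3, 21.03 and 4.35 CPM in WT 1 to 4 and 314, 72.6, 4179 and 5954 CPM in Col5a1CKO 1 to 4. Cxcl3 stood at 1.17, 4.22, 2.42 and 0.917 CPM in WT 1 to 4 and 238, 38.2, 2038 and 2481 CPM in Col5a1CKO 1 to 4. The groups did not overlap for any of the 8, against 22.9% of all genes with Col5a1CKO higher and no overlap. For these 3 chemokines Col5a1CKO 3 and 4 lay above Col5a1CKO 1 and 2. Cxcl3, Cxcr1, Cxcl2, Cxcl1, Cxcl5 and Ppbp rose by 9.10, 7.30, 7.25, 6.55, 6.17 and 5.53 on the log2 scale (edgeR adjusted p between 0.00143 and 0.0112). Among CC chemokines and receptors, which mostly draw monocytes and lymphocytes, 14 of 27 rose and 4 fell, against 17.5% and 13.4% over all genes. Ccl4, Ccl3, Ccr1, Ccl9 and Ccl7 rose by 7.13, 6.66, 5.99, 4.02 and 3.50 on the log2 scale (edgeR adjusted p between 0.0008801 and 0.01199). Ccl3 was not called with Y-linked RNA as a covariate (edgeR adjusted p = 0.0801), and within title numbers 4192 to 4223 neither Ccl3 nor Ccl4 was (edgeR adjusted p = 0.0813 and 0.0604). The 4 that fell were Ccl20, Ccl1, Ccr4 and Ccr9, of which Ccl20, a chemokine of keratinocytes, lay at 3.79 to 7.25 CPM in WT wounds and 0 to 0.133 CPM in Col5a1CKO wounds, and Ccl20, Ccl1, Ccr4 and Ccr9 fell, with log2 fold changes of -6.34, -5.15, -2.28 and -1.52 (edgeR adjusted p between 0.00175 and 0.00585).

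Interleukin-1β, an early cytokine of neutrophils and macrophages, is encoded by Il1b (chr2:129190306-129196875, minus strand). Its level was 6.74, 94.8, 23.6 and 5.54 CPM in WT 1 to 4 and 1559, 617, 10308 and 9499 CPM in Col5a1CKO 1 to 4. The lowest Col5a1CKO wound was above the highest WT wound, WT 2, and Il1b rose by 7.39 on the log2 scale (SE 1.55, edgeR adjusted p = 0.00652). Of 22 genes of the interleukin-1 family and its inflammasomes, 12 rose and 2 fell, with a median of 2.06. Over all genes 17.5% were higher and 13.4% lower. Il1b, Nlrp3, Il18rap, Il1a, Casp4 and Il1rl1 rose by 7.39, 6.52, 5.13, 4.02, 3.09 and 3.08 on the log2 scale (edgeR adjusted p between 0.00199 and 0.0186). The 2 that fell, Il18 and Pycard, are a cytokine and an inflammasome adaptor that keratinocytes also make, and Il18 and Pycard fell, with log2 fold changes of -3.08 and -2.41 (edgeR adjusted p between 0.00378 and 0.00395). Il1a lost its edgeR call without WT 4 (adjusted p up to 0.0527). For this family, the number higher was 7 within title numbers 4192 to 4223 and the number lower was 5 without Col5a1CKO 4 or with DESeq2.

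Tumour necrosis factor, encoded by Tnf, lay at 1.78 to 4.44 CPM in WT wounds and 10.1 to 319.6 CPM in Col5a1CKO wounds. Of 22 genes of TNF and the feedback on NF-kB, 16 rose and none fell, with a median of 2.33. Over all genes 17.5% were higher and 13.4% lower. Tnf, Tnfrsf1b, Traf1, Tnfaip3, Nfkbie and Nfkbia rose by 5.63, 4.39, 4.03, 3.67, 3.63 and 3.07 on the log2 scale (edgeR adjusted p between 0.00158 and 0.0116). Nfkbia, Nfkbie and Tnfaip3 encode inhibitors that NF-kB itself induces. For this list, the number higher was 10 within title numbers 4192 to 4223. Il6 stood at 0.215, 0.644, 0.359 and 0.0719 CPM in WT 1 to 4 and 33.8, 28.1, 35.7 and 8.44 CPM in Col5a1CKO 1 to 4. It was under 1 CPM in every WT wound, and Il11 lay at 0.575 to 0.931 CPM in WT wounds and 7.46 to 41.99 CPM in Col5a1CKO wounds. Of 13 genes of the interleukin-6 family and its STAT3 feedback, 6 rose and none fell. Osm, Il6, Il11, Socs3, Clcf1 and Lif rose by 7.01, 6.35, 4.73, 4.31, 1.56 and 1.16 on the log2 scale (edgeR adjusted p between 0.00103 and 0.0461). Clcf1 lost its edgeR call without WT 1, WT 3, WT 4, Col5a1CKO 1, Col5a1CKO 3 or Col5a1CKO 4 (adjusted p up to 0.107), as did Lif without Col5a1CKO 3 (the change then being under 2-fold).

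Receptors by which innate cells sense microbes and damage rose in 18 of 22 cases, against 17.5% higher over all genes. Their median was 4.59. The groups did not overlap, with Col5a1CKO higher, for 19 of the 22, against 22.9% of all genes. Cd14, the co-receptor of Tlr4, stood at 8.54, 31.6, 19.2 and 4.93 CPM in WT 1 to 4 and 650.4, 137, 3231 and 3775 CPM in Col5a1CKO 1 to 4. Fpr1, Trem1, Clec4e, Fpr2, Cd14 and Trem3 rose by 7.65, 7.50, 7.43, 7.23, 6.92 and 6.88 on the log2 scale (edgeR adjusted p between 0.001804 and 0.00679). Genes of macrophage activation rose in 12 of 17 cases. Nos2, the inducible nitric oxide synthase (chr11:78734289-78773756, plus strand), stood at 2.49, 3.17, 1.22 and 0.306 CPM in WT 1 to 4 and 168, 18.03, 987 and 610.3 CPM in Col5a1CKO 1 to 4. Nos2, Irg1, Ptgs2, Spp1, Chi3l3 and Msr1 rose by 7.95, 7.69, 7.30, 6.20, 5.79 and 5.02 on the log2 scale (edgeR adjusted p between 0.00151 and 0.00613). Nos2, Irg1 and Ptgs2 belong to the response to bacterial products and Chi3l3 to the response to interleukin-4, and all 4 rose. For macrophage activation, the number lower was 1 without Col5a1CKO 2.

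Complement, the plasma and tissue cascade that marks microbes and debris, rose in 13 of 21 genes, against 17.5% higher over all genes. The median was 1.66. C3, its central component (chr17:57343397-57367559, minus strand), stood at 29.3, 15.3, 33.5 and 12.5 CPM in WT 1 to 4 and 477, 409.8, 752 and 774 CPM in Col5a1CKO 1 to 4. C5ar1, C3, Gpr77, Cfb, Cfp and Serping1 rose by 5.05, 4.74, 3.48, 3.19, 3.03 and 2.85 on the log2 scale (edgeR adjusted p between 0.000566 and 0.00832). C5ar1 and Gpr77 encode the receptors of the fragment C5a. For complement, the number higher was 8 within title numbers 4192 to 4223.

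Interferon-stimulated genes rose in 27 of 30 cases, against 17.5% higher over all genes, with a median of 2.27. The groups did not overlap, with Col5a1CKO higher, for 28 of the 30, against 22.9% of all genes. Isg15, a ubiquitin-like protein, stood at 7.45, 11.8, 2.91 and 3.61 CPM in WT 1 to 4 and 32.8, 16.9, 96.3 and 134 CPM in Col5a1CKO 1 to 4. Oas3, a sensor of double-stranded RNA, stood at 3.06, 7.43, 3.18 and 2.27 CPM in WT 1 to 4 and 50.5, 18.01, 81.97 and 116 CPM in Col5a1CKO 1 to 4. In both, Col5a1CKO 2 was the lowest of its group and still above every WT wound. Rsad2, Oas3, Isg15, Oas2, Oasl1 and Zbp1 rose by 4.14, 4.06, 3.44, 3.40, 3.09 and 2.98 on the log2 scale (edgeR adjusted p between 0.00241 and 0.00859). Of 14 genes of antigen presentation by MHC class II, 3 rose and 1 fell, against 17.5% higher and 13.4% lower over all genes. Cd80, Ctss and Cd86 rose by 4.36, 3.04 and 2.89 on the log2 scale (edgeR adjusted p between 0.00102 and 0.00209), whereas H2-DMb2 fell by 1.26 on the log2 scale (SE 0.24, edgeR adjusted p = 0.00437). For this list, the number lower was 0 within title numbers 4192 to 4223.

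**Figure D4:**
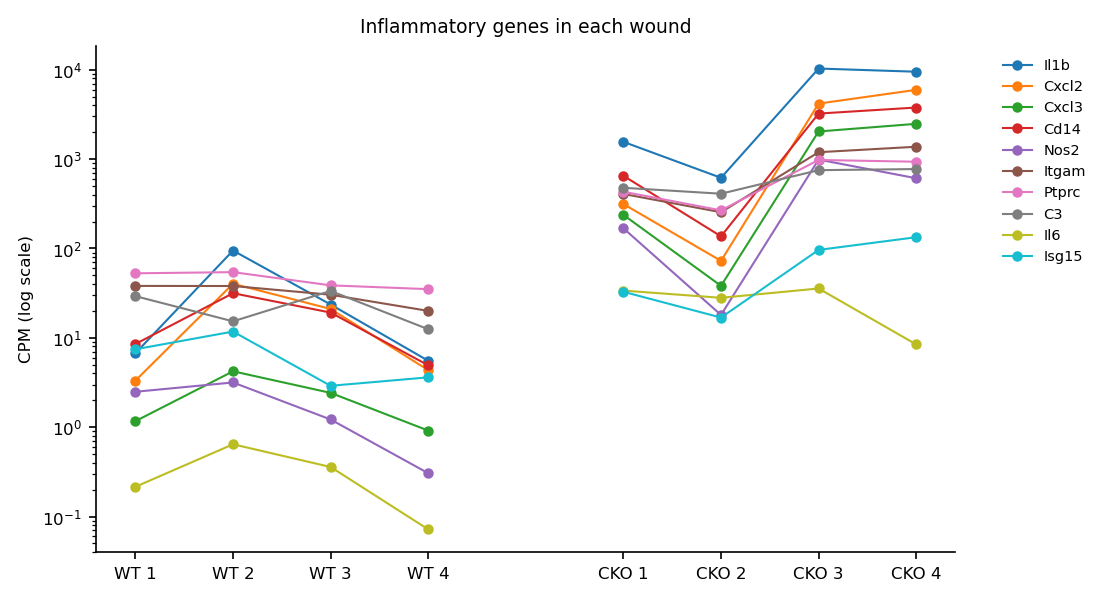
CPM of 10 inflammatory genes in each wound on a log axis, with 1 colour per gene and lines joining the values of a gene within a genotype, whose wounds have no order. Each gene is higher in all 4 Col5a1CKO wounds than in all 4 WT wounds, and Col5a1CKO 3 and 4 lie above Col5a1CKO 1 and 2 for every gene shown except Il6.

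Markers of the leukocytes that make such genes moved with them. Ptprc, which encodes the pan-leukocyte protein CD45, stood at 52.7, 54.3, 38.7 and 35.1 CPM in WT 1 to 4 and 431, 267, 978 and 934 CPM in Col5a1CKO 1 to 4. Itgam, the CD11b chain of neutrophils and macrophages, stood at 38.1, 38.01, 30.4 and 20.03 CPM in WT 1 to 4 and 407, 254, 1194 and 1375 CPM in Col5a1CKO 1 to 4. Itgam and Ptprc rose by 4.67 and 3.85 on the log2 scale (edgeR adjusted p between 0.00107 and 0.001404), with no overlap. Of 17 neutrophil markers tested, 14 rose and none fell, against 17.5% higher and 13.4% lower over all genes. Their summed level was 1175 to 4372 CPM in WT wounds and 1889.8 to 49091 CPM in Col5a1CKO wounds. Retnlg, Stfa2l1, Hdc, Mmp8, Trem1 and Csf3r rose by 9.12, 8.54, 7.65, 7.55, 7.50 and 5.82 on the log2 scale (edgeR adjusted p between 0.00122 and 0.007602). Of 14 monocyte and macrophage markers, 12 rose, with a summed level of 395 to 1396 CPM in WT wounds and 3999 to 7218 CPM in Col5a1CKO wounds. Itgam, Ly6c2, Ptprc, Cd68, Lyz2 and Csf1r rose by 4.67, 4.28, 3.85, 2.69, 2.63 and 2.31 on the log2 scale (edgeR adjusted p between 0.00107 and 0.00314). Without Col5a1CKO 2, and likewise without WT 3, 8 of these 14 were higher. For the neutrophil markers, the number lower was 1 without Col5a1CKO 4 or with DESeq2. The part that the number of these cells had in the inflammatory lists was not tested.

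Lymphocyte markers were divided. Of 14 T and NK cell markers tested, 5 rose and 3 fell, against 17.5% higher and 13.4% lower over all genes. Il2ra, the interleukin-2 receptor chain of activated and regulatory T cells, lay at 1.47 to 2.702 CPM in WT wounds and 15.8 to 62.9 CPM in Col5a1CKO wounds, and Il2ra, Gzmb, Gzma, Foxp3 and Cd4 rose by 4.25, 3.96, 2.58, 2.37 and 1.66 on the log2 scale (edgeR adjusted p between 0.000827 and 0.0254). Nkg7, Prf1 and Cd3e fell, with log2 fold changes of -2.60, -1.39 and -1.07 (edgeR adjusted p between 0.00224 and 0.0292). Cd4 lost its edgeR call without WT 3, WT 4, Col5a1CKO 2 or Col5a1CKO 3 (adjusted p up to 0.0682), as did Cd3e without WT 3, WT 4, Col5a1CKO 3 or Col5a1CKO 4 (adjusted p up to 0.0506) and Prf1 without WT 1, WT 3, WT 4 or Col5a1CKO 1 (adjusted p up to 0.0808). Of 3 B and plasma cell markers tested, 1 (Cd79a) was called higher, at no more than 0.595 CPM, and the call was lost when any library other than WT 1 was left out (adjusted p up to 0.1095). For the T and NK cell markers, the number higher was 3 within title numbers 4192 to 4223 and the number lower was 1 without WT 3 or WT 4 or within title numbers 4192 to 4223. None of 6 mast cell markers was called: Fcer1a had a log2 fold change of 1.51 (SE 0.90, edgeR adjusted p = 0.196), Kit had a log2 fold change of 0.60 (SE 0.53, edgeR adjusted p = 0.369) and Mcpt4 had a log2 fold change of 0.41 (SE 0.92, edgeR adjusted p = 0.732). For the mast cell markers, the number higher was 1 without Col5a1CKO 1 or within title numbers 4192 to 4223. Leaving out Col5a1CKO 2 turned the log2 fold change of Mcpt4 to -0.31.

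Of the 10 fibril-forming collagen genes tested, 3 rose and none fell, against 17.5% higher over all genes, with a median of 1.78. Col5a3, a further chain of collagen V, stood at 301, 379.8, 263 and 154 CPM in WT 1 to 4 and 1568, 1273, 1128 and 627 CPM in Col5a1CKO 1 to 4. It rose by 2.07 on the log2 scale (SE 0.39, edgeR adjusted p = 0.00412), with no overlap. Col5a2, the pro-alpha2 chain, stood at 2123, 1962, 398 and 305 CPM in WT 1 to 4 and 6716, 6167, 3631 and 1790.4 CPM in Col5a1CKO 1 to 4. It had a log2 fold change of 1.93 (SE 0.78, edgeR adjusted p = 0.0724) and was not called. Col5a3, Col11a2 and Col27a1 rose by 2.07, 2.03 and 1.62 on the log2 scale (edgeR adjusted p between 0.00412 and 0.0493). Col11a2 lost its edgeR call without WT 3 or WT 4 (adjusted p up to 0.0519), as did Col27a1 without WT 1, WT 3, WT 4, Col5a1CKO 1, Col5a1CKO 2 or Col5a1CKO 3 (adjusted p up to 0.104). For the fibril-forming collagens, the number higher was 1 without WT 3 or WT 4, 5 without Col5a1CKO 4 or with the title number range as a covariate and 6 with DESeq2.

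Among 25 other collagen genes 4 rose and 2 fell, against 17.5% higher and 13.4% lower over all genes. The 2 that fell, Col4a5 and Col4a6, encode chains of the epidermal basement membrane, and Col4a6 lay at 8.59 to 25.9 CPM in WT wounds and 0 to 0.0851 CPM in Col5a1CKO wounds. Col4a6 and Col4a5 fell, with log2 fold changes of -8.89 and -2.71 (edgeR adjusted p between 0.000626 and 0.00128). Col22a1, Col25a1, Col13a1 and Col15a1 rose by 4.11, 2.84, 2.42 and 2.19 on the log2 scale (edgeR adjusted p between 0.0149 and 0.0379). Col25a1 lost its edgeR call without WT 1, WT 4, Col5a1CKO 1, Col5a1CKO 2 or Col5a1CKO 3 (adjusted p up to 0.0874), as did Col13a1 without WT 1, WT 3, WT 4, Col5a1CKO 1, Col5a1CKO 2 or Col5a1CKO 4 (adjusted p up to 0.0718) and Col15a1 without WT 1, WT 3, WT 4, Col5a1CKO 1 or Col5a1CKO 2 (adjusted p up to 0.0735). For these collagens, the number higher was 1 without WT 1, WT 4, Col5a1CKO 1 or Col5a1CKO 2, 2 without WT 3, 8 within title numbers 4192 to 4223 or with DESeq2 and 12 with the title number range as a covariate. Enzymes that process and crosslink collagen rose in 13 of 23 cases, and 1 fell. Lox, lysyl oxidase, stood at 219, 133, 83.9 and 36.9 CPM in WT 1 to 4 and 772, 879.7, 496 and 319 CPM in Col5a1CKO 1 to 4. Adamts3, Loxl3, Loxl2, Lox, Plod2 and Bmp1 rose by 2.64, 2.57, 2.44, 2.38, 2.14 and 2.01 on the log2 scale (edgeR adjusted p between 0.00498 and 0.0146). Leprel1, a prolyl 3-hydroxylase, fell by 2.004 on the log2 scale (SE 0.29, edgeR adjusted p = 0.00167). For these enzymes, the number higher was 20 with DESeq2 and 21 with the title number range as a covariate.

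Of 10 small leucine-rich proteoglycan genes, which bind collagen fibrils, 1 rose, against 17.5% higher over all genes. Dcn, decorin, stood at 654, 638, 397 and 217 CPM in WT 1 to 4 and 3632, 3189, 3818 and 1038 CPM in Col5a1CKO 1 to 4 and rose by 2.62 on the log2 scale (SE 0.55, edgeR adjusted p = 0.00646). For the proteoglycans, the number higher was 3 without WT 1, within title numbers 4192 to 4223 or with the title number range as a covariate, 4 without Col5a1CKO 4 and 5 with DESeq2. Of 17 genes of elastic fibers and microfibrils 4 rose and none fell, against 17.5% higher and 13.4% lower over all genes. Emilin2, Ltbp2, Efemp2 and Ltbp1 rose by 3.74, 3.55, 1.74 and 1.45 on the log2 scale (edgeR adjusted p between 0.00155 and 0.0141). For elastic fibers and microfibrils, the number higher was 7 within title numbers 4192 to 4223 and 9 with the title number range as a covariate and the number lower was 2 without Col5a1CKO 2.

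Ligands of αv integrins, the receptors that cilengitide blocks, and other matricellular proteins rose in 10 of 18 cases, and none fell. Thbs1, thrombospondin 1, stood at 171, 211, 73.1 and 55.97 CPM in WT 1 to 4 and 3152, 1251, 6283 and 11142 CPM in Col5a1CKO 1 to 4. Spp1, osteopontin, stood at 112, 99.6, 25.1 and 16.4 CPM in WT 1 to 4 and 1873, 1399.8, 6113 and 9181 CPM in Col5a1CKO 1 to 4. Neither overlapped between the groups. Spp1, Thbs1, Tnc, Ctgf, Tnn and Cyr61 rose by 6.20, 5.42, 3.21, 3.14, 3.03 and 2.90 on the log2 scale (edgeR adjusted p between 0.00161 and 0.0247). Tnn lost its edgeR call without Col5a1CKO 1 or Col5a1CKO 3 (adjusted p up to 0.0528). Both chains of the integrin αvβ3 rose. Itgav, the αv chain, stood at 104, 109.8, 76.3 and 77.2 CPM in WT 1 to 4 and 282, 179, 271 and 300.3 CPM in Col5a1CKO 1 to 4. Itgb3, the β3 chain (chr11:104469370-104531790, plus strand), stood at 25.98, 32.5, 19.8 and 16.5 CPM in WT 1 to 4 and 176, 130.1, 117 and 65.3 CPM in Col5a1CKO 1 to 4. Itgav and Itgb3 rose by 1.49 and 2.37 on the log2 scale (edgeR adjusted p between 0.00169 and 0.00172), and neither overlapped. Of 18 integrin genes 8 rose and 2 fell, against 17.5% higher and 13.4% lower over all genes. Itga5, Itga1, Itgb3, Itga8, Itga9 and Itgb1 rose by 2.50, 2.47, 2.37, 2.31, 1.94 and 1.89 on the log2 scale (edgeR adjusted p between 0.00169 and 0.0243). The 2 that fell, Itgb4 and Itga3, encode chains of laminin receptors of epithelium, and Itga3 fell by 1.80 on the log2 scale (SE 0.56, edgeR adjusted p = 0.03095). Itga8 lost its edgeR call without WT 4, Col5a1CKO 1 or Col5a1CKO 3 (adjusted p up to 0.0615), as did Itga3 without WT 2, WT 3, WT 4, Col5a1CKO 1 or Col5a1CKO 2 (adjusted p up to 0.0621) and Itgb4 without WT 2, WT 3, Col5a1CKO 1 or Col5a1CKO 2 (adjusted p up to 0.0685). For the integrins, the number lower was 0 without WT 2, WT 3, Col5a1CKO 1 or Col5a1CKO 2 or within title numbers 4192 to 4223, 1 without WT 4 and 4 without Col5a1CKO 4.

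Contractile genes of myofibroblasts and smooth muscle rose in 7 of 14 cases, and none fell. Over all genes 17.5% were higher and 13.4% lower. Acta2, α-smooth muscle actin, stood at 126, 319, 34.8 and 39.02 CPM in WT 1 to 4 and 1579, 891, 708 and 1404 CPM in Col5a1CKO 1 to 4. WT 2 was the highest WT wound and was below every Col5a1CKO wound. Cnn1, Actg2, Acta2, Tagln, Lmod1 and Myl9 rose by 5.19, 3.79, 3.14, 3.10, 2.64 and 2.06 on the log2 scale (edgeR adjusted p between 0.00373 and 0.0262). Myl9 lost its edgeR call without WT 1, WT 4 or Col5a1CKO 1 (adjusted p up to 0.0633). Of 12 genes of the TGF-β pathway 9 rose, with a median of 1.45. Tgfb1 stood at 64.4, 72.5, 42.3 and 31.4 CPM in WT 1 to 4 and 208, 143, 263 and 295 CPM in Col5a1CKO 1 to 4. Inhba, Tgfb1, Tgfb2, Smad7 and Tgfbr1 rose by 4.12, 2.11, 2.10, 1.47 and 1.45 on the log2 scale (edgeR adjusted p between 0.00129 and 0.0218), where Inhba encodes a subunit of activin A. Smad7 lost its edgeR call without WT 1 or WT 3 (adjusted p up to 0.0616). For the TGF-β pathway, the number higher was 5 within title numbers 4192 to 4223.

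Matrix metalloproteinases, which cut collagen and other matrix proteins, rose in 10 of 19 cases and fell in 1. Over all genes 17.5% were higher and 13.4% lower. Mmp13, a collagenase, stood at 30.9, 107, 8.18 and 6.33 CPM in WT 1 to 4 and 1863, 390.3, 857 and 482 CPM in Col5a1CKO 1 to 4. Mmp3, stromelysin 1, stood at 25.4, 31.5, 10.05 and 16.7 CPM in WT 1 to 4 and 2115, 564, 1076 and 334 CPM in Col5a1CKO 1 to 4. Mmp8, Mmp3, Mmp12, Mmp10, Mmp13 and Mmp25 rose by 7.55, 5.61, 5.51, 5.31, 4.56 and 3.36 on the log2 scale (edgeR adjusted p between 0.00122 and 0.0113). Mmp8 is the collagenase of neutrophils and Mmp12 an elastase of macrophages. Mmp28, a metalloproteinase that keratinocytes express, fell by 1.81 on the log2 scale (SE 0.25, edgeR adjusted p = 0.00138). Of 10 genes for TIMPs, plasminogen activators and serpins 6 rose and none fell. Plaur, Serpine2, Timp1, Plat and Timp2 rose by 5.49, 3.86, 2.08, 1.74 and 1.71 on the log2 scale (edgeR adjusted p between 0.00377 and 0.0459). Plat lost its edgeR call without WT 3, WT 4, Col5a1CKO 1, Col5a1CKO 2 or Col5a1CKO 3 (adjusted p up to 0.085), as did Timp2 without WT 1, WT 3, WT 4, Col5a1CKO 1, Col5a1CKO 2 or Col5a1CKO 3 (adjusted p up to 0.109). For these 10 genes, the number lower was 1 without Col5a1CKO 4 or with DESeq2.

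Some markers of stromal cells rose as well. Of 9 fibroblast markers, 3 rose, against 17.5% higher over all genes. Pdgfra, Dcn and Thy1 rose by 2.99, 2.62 and 1.87 on the log2 scale (edgeR adjusted p between 0.002996 and 0.0178). The summed level of the 9 was 33147, 29961, 7170.2 and 5782 CPM in WT 1 to 4 and 52398, 63735, 33862 and 14127 CPM in Col5a1CKO 1 to 4. Every Col5a1CKO sum lay above WT 3 and WT 4, and that of Col5a1CKO 4 below WT 1 and WT 2. For the fibroblast markers, the number higher was 5 with the title number range as a covariate or with DESeq2. Of 14 endothelial markers, 7 rose and none fell, with a summed level of 94.00 to 572 CPM in WT wounds and 620.3 to 1442 CPM in Col5a1CKO wounds. Emcn, Egfl7, Lyve1, Eng, Pecam1 and Esam rose by 2.22, 2.16, 2.12, 2.02, 1.95 and 1.85 on the log2 scale (edgeR adjusted p between 0.009403 and 0.0449). Eng lost its edgeR call without WT 3 or Col5a1CKO 1 (adjusted p up to 0.05705), as did Pecam1 without WT 3, Col5a1CKO 1 or Col5a1CKO 2 (adjusted p up to 0.0636) and Esam without WT 1, WT 3, WT 4, Col5a1CKO 1, Col5a1CKO 2 or Col5a1CKO 3 (adjusted p up to 0.103). For the endothelial markers, the number higher was 3 without WT 3 or Col5a1CKO 1, 4 without Col5a1CKO 2 and 11 without WT 2, within title numbers 4192 to 4223, with the title number range as a covariate or with DESeq2. Of 7 markers of pericytes and smooth muscle, Acta2 and Mcam rose and Notch3 fell, against 17.5% higher and 13.4% lower over all genes. Mcam lost its edgeR call without WT 1, WT 3, WT 4, Col5a1CKO 1, Col5a1CKO 2, Col5a1CKO 3 or Col5a1CKO 4 (adjusted p up to 0.0998). For these 7 markers, the number higher was 1 without WT 1, WT 3, WT 4, Col5a1CKO 1, Col5a1CKO 2, Col5a1CKO 3 or Col5a1CKO 4 and 4 within title numbers 4192 to 4223 or with the title number range as a covariate. The part that the number of these cells had in the matrix lists was not tested.

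Muscle genes varied widely within both groups. None of 20 skeletal muscle markers was called, with a median of -2.22, and their summed level was 2628, 64.9, 5974 and 1689.9 CPM in WT 1 to 4 and 2352, 159.8, 19.01 and 32.4 CPM in Col5a1CKO 1 to 4. Acta1, skeletal actin, had a log2 fold change of -2.59 (SE 1.43, edgeR adjusted p = 0.164), Tnni2 had a log2 fold change of -2.60 (SE 1.61, edgeR adjusted p = 0.209) and Casq1 had a log2 fold change of -2.84 (SE 1.60, edgeR adjusted p = 0.172). For the muscle markers, the number lower was 11 without Col5a1CKO 1 and 12 within title numbers 4192 to 4223. Of 11 adipocyte markers tested, 3 fell and 1 rose, against 13.4% lower and 17.5% higher over all genes. Cidea, Plin4 and Lipe fell, with log2 fold changes of -4.57, -2.12 and -1.37 (edgeR adjusted p between 0.000723 and 0.00588), and Retn rose by 3.75 on the log2 scale (SE 1.02, edgeR adjusted p = 0.0182). Retn lost its edgeR call without WT 4 (adjusted p up to 0.0527). For the adipocyte markers, the number higher was 0 without WT 4 or within title numbers 4192 to 4223 and 2 without Col5a1CKO 4 or with DESeq2.

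Genes of cell division and of the respiratory chain had small log2 fold changes, mostly negative. Of 34 cell cycle genes 3 fell and none rose, against 13.4% lower and 17.5% higher over all genes, with a median of -0.39. Of the 34, 14 lay below every WT wound in all 4 Col5a1CKO wounds, against 26.8% of all genes. Mki67, the Ki-67 antigen of dividing cells, stood at 183, 168, 187 and 234 CPM in WT 1 to 4 and 135, 114, 58.6 and 77.9 CPM in Col5a1CKO 1 to 4. It fell by 1.004 on the log2 scale (SE 0.27, edgeR adjusted p = 0.0176), without overlap. Ccnd1, Cenpf and Mki67 fell, with log2 fold changes of -1.09, -1.01 and -1.004 (edgeR adjusted p between 0.01604 and 0.0306). Ccnd1 lost its edgeR call without WT 2, WT 4, Col5a1CKO 3 or Col5a1CKO 4 (adjusted p up to 0.06904), as did Cenpf without WT 3, WT 4, Col5a1CKO 3 or Col5a1CKO 4 (the change then being under 2-fold) and Mki67 without WT 4, Col5a1CKO 3 or Col5a1CKO 4 (the change then being under 2-fold). For the cell cycle genes, the number lower was 0 without WT 4, Col5a1CKO 3 or Col5a1CKO 4 and 1 with the title number range as a covariate or with DESeq2. Of 76 subunits of the respiratory chain 5 fell and none rose, against 13.4% lower and 17.5% higher over all genes. Their median was -0.48, and 71 had a negative log2 fold change. The groups did not overlap for 40 of the 76, with Col5a1CKO lower, against 26.8% of all genes. Ndufa4l2, Ndufa4, Atp5d, Uqcrc1 and Uqcr11 fell, with log2 fold changes of -2.44, -1.15, -1.11, -1.06 and -1.04 (edgeR adjusted p between 0.001301 and 0.0403). Ndufa4l2 lost its edgeR call without WT 1, WT 2, WT 3, WT 4, Col5a1CKO 1, Col5a1CKO 2 or Col5a1CKO 3 (adjusted p up to 0.0942), as did Uqcr11 without WT 3, Col5a1CKO 1 or Col5a1CKO 3 (the change then being under 2-fold), Ndufa4 without WT 3 (the change then being under 2-fold), Atp5d without WT 3 (the change then being under 2-fold) and Uqcrc1 without WT 3 (the change then being under 2-fold). For the respiratory chain, the number lower was 0 without WT 3, 3 without Col5a1CKO 3 and 8 without WT 2 or within title numbers 4192 to 4223. Of 27 genes of glycolysis and the hypoxia response 7 rose and 1 fell, against 17.5% higher and 13.4% lower over all genes. Slc16a3, Pfkfb3, Ero1l, Adm, Vegfa and Gapdh rose by 4.14, 3.28, 2.77, 2.40, 1.86 and 1.60 on the log2 scale (edgeR adjusted p between 0.00161 and 0.0477), and Car12, a carbonic anhydrase, fell by 3.47 on the log2 scale (SE 0.59, edgeR adjusted p = 0.00288). Slc16a3, a lactate exporter, lay at 13.6 to 46.3 CPM in WT wounds and 105 to 991 CPM in Col5a1CKO wounds. Ero1l lost its edgeR call without WT 1, WT 2, WT 3, WT 4, Col5a1CKO 3 or Col5a1CKO 4 (adjusted p up to 0.09898), as did Vegfa without WT 1, WT 2, WT 3, WT 4, Col5a1CKO 3 or Col5a1CKO 4 (adjusted p up to 0.107) and Gapdh without WT 1, WT 2, WT 3, WT 4, Col5a1CKO 3 or Col5a1CKO 4 (adjusted p up to 0.114). For glycolysis and hypoxia, the number higher was 2 within title numbers 4192 to 4223, 3 without WT 1, WT 3, WT 4, Col5a1CKO 3 or Col5a1CKO 4 or with the title number range as a covariate, 4 without WT 2, 11 with DESeq2 and 12 without Col5a1CKO 2 and the number lower was 2 without Col5a1CKO 1 or within title numbers 4192 to 4223.

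The series also holds 7 WT and 7 Col5a1CKO wounds of day 14 whose labels say only that they were wounded, in a separate table of counts. The study describes day 14 controls of its fibroblast transfer as having received vehicle, with PBS alone injected in place of cells. It also describes day 14 wounds of 4 WT and 4 Col5a1CKO mice without naming a vehicle. The labels do not say which wounds came from which experiment, so none is taken as untreated, and all are called the 7-against-7 wounds. Each comparison was fitted within its own table. There, 800 of 14367 genes tested were higher (5.57%) and 389 lower (2.71%) in Col5a1CKO wounds (edgeR). These libraries differed in base composition, with GC-rich minus GC-poor values of -2.21 to -1.09 on the log2 scale in 4 WT and 5 Col5a1CKO libraries and 0.73 to 0.89 in 3 WT and 2 Col5a1CKO libraries, and with these 2 sets as a covariate 1299 genes were higher and 558 lower. Of the 14311 genes tested in both, 708 were higher in both, which is 27.8% of the 2549 higher genes of the vehicle (4-against-4) comparison and 88.8% of the 797 higher genes of the other one. Likewise 308 were lower in both, 16.4% of 1876 and 80.6% of 382. With the GC set as a covariate, 1040 were higher in both (40.8% of 2549 and 80.2% of 1296) and 406 lower in both (21.6% of 1876 and 72.8% of 558). None was called in opposite directions in either fit. Of the vehicle calls, 2451 of the higher (96.2%) and 1822 of the lower genes (97.1%) had the same sign in the 7-against-7 wounds. Across genes, which are not independent replicates, the log2 fold changes had a Pearson r of 0.820 and a Spearman rho of 0.785. Their medians over the vehicle calls were 2.01 for the higher and -2.003 for the lower genes in the vehicle comparison, and 1.15 and -1.23 in the 7-against-7 one. The vehicle calls were chosen on the vehicle values, so that their size in that comparison is a description.

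The epidermal lists had medians below 0 in both comparisons. The median of the suprabasal keratins was -8.39 in the 4-against-4 and -3.13 in the 7-against-7 wounds, where 0 of 6 were called. Krt10 had -8.39 and -3.30, Krt1 -7.55 and -2.88, and Krt77 -11.20 and -3.45 as log2 fold changes in the 4-against-4 and the 7-against-7 wounds. The cornified envelope genes had medians of -4.51 and -2.69. Saa3 had 9.14 and 6.53, Il6 6.35 and 7.70 and Car4 7.82 and 9.33, called higher in both. Il1b had 7.39 and 1.56, Cxcl2 7.25 and 1.61, Cxcl3 9.10 and 3.51 and Ccl4 7.13 and 0.72, called in the 4-against-4 and not in the 7-against-7 wounds, where Cxcl3 was called with the GC set as a covariate (3.84, edgeR adjusted p = 0.0304) and Il1b, Cxcl2 and Ccl4 were not. Interferon-stimulated genes had medians of 2.27 and 0.86, with 27 of 30 and 3 of 29 called higher (7 of 29 with the GC set as a covariate), and Toll-like and C-type lectin receptors 4.59 and 1.33. Ccl20 had -6.34 in the 4-against-4 and 1.98 in the 7-against-7 wounds, where it was not called. The median of the skeletal muscle markers was -2.22 in the 4-against-4 and 1.86 in the 7-against-7 wounds. The 2 comparisons differ in mice, tables and depth, and the difference between them was not tested.

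**Figure D5:**
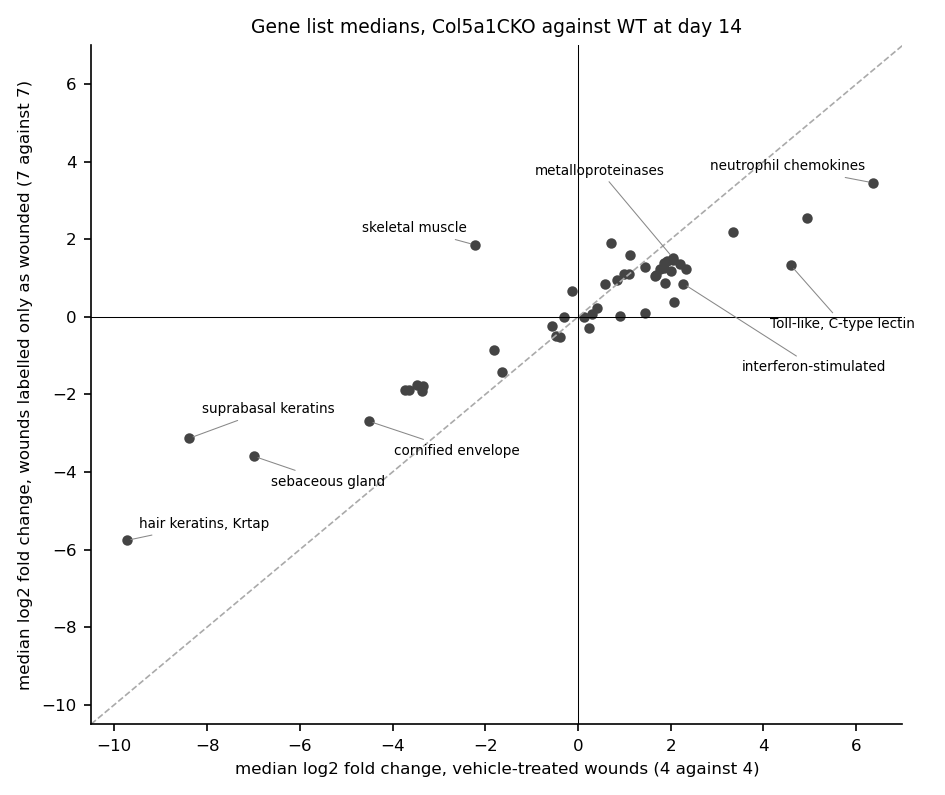
Median log2 fold change (Col5a1CKO against WT, edgeR) of each gene list, with vehicle-treated wounds (4 against 4) on the horizontal axis, day 14 wounds labelled only as wounded (7 against 7) on the vertical axis and a dashed line where both would be equal. Most lists share their sign and lie nearer 0 in the 7-against-7 wounds, and the medians lie on opposite sides for skeletal muscle (-2.22 and 1.86), adipocytes (-0.14 and 0.67), melanocytes and Schwann cells (0.23 and -0.28) and, near 0, T and NK cells.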

How the data were processed

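RNA of whole wounds was sequenced, and the authors deposited raw counts per gene symbol (22830 symbols) for the vehicle and cilengitide libraries and raw counts per RefSeq transcript for the other libraries, where each symbol was represented by its most counted row. The methods describe single-end reads aligned with HISAT2 to NCBI37/mm9 and counted over exons of RefSeq genes in SeqMonk, with DESeq2 as the test. DESeq is also named for the vehicle and cilengitide libraries, but not whether these were aligned and counted likewise. Among counts of 1 to 9, 55.8% to 65.7% were even, so that fragments may have been counted by both ends in part and counting intervals may be too narrow. Intervals and floors cover counting error only. A row without a gene name held under 0.001% of each library and was left out, and 0 columns of values were unmapped. The counts were made with a strand-marking kit, but the strand setting of the counting is not given in the sources used here, so genes that overlap on opposite strands cannot be told apart.

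Groups followed the labels, in which the treatment field of each sample gives vehicle although a shared protocol line names cilengitide. The quasi-likelihood test of edgeR 4.0.16 (R 4.3.3) was run with TMM factors and robust dispersions on the 15434 genes that passed filterByExpr at a minimum count of 10. Calls needed a 2-fold change and p under 0.05 after Benjamini-Hochberg adjustment. SE is the absolute log2 fold change divided by the square root of F. Exact permutation tests used scipy 1.17.1 in Python 3.11.15, with numpy 2.4.6, pandas 2.3.3 and matplotlib 3.10.9. Tested on simulated data with 200 genes of the vehicle comparison changed 4-fold, edgeR recovered 64.5% with 5 false calls and DESeq2 1.42.0 89.5% with 57. Far fewer genes were changed in that simulation than were called here, so these values may not hold for the real comparison.

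Named genes were Col5a1, the 12 called genes in each direction with the smallest adjusted p and the 8 with the largest change at a mean of at least 5 CPM, all without overlap, up to 6 called members of each list in each direction (or 3 with the smallest p), and the genes of proteins the study measured. Some genes that this rule would name are not reported here. Krt14, Col1a1, Col5a2, Cd79a and the few others outside this rule were chosen after their values were seen. The gene lists and these choices were made with earlier results of these data known. Promoters are RefSeq sequences of GRCm38.p6, matched by symbol. Positions of genes come from GENCODE on NCBI37. Alternatives were DESeq2, other scalings, no filter on low counts, all 3 groups of the table in one fit, other thresholds, title number range or Y-linked RNA as a covariate, title numbers 4192 to 4223 only and leaving out each library. Refits of the gene lists and of the ratio of Col5a1 to Col1a1 were added after seeing the data.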

Additional observations from a re-analysis of the deposited data

Results flagged for a closer look

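Single wounds stood apart from the other 3 of their group in 19 of 188 groups of 4 values looked at. There the gap exceeded Dixon's 95% critical share of the range. The values were CPM without a log scale and many lists and genes overlap, so no rate by chance is given. Most were Col5a1CKO 4 in epidermal genes. Its summed level was 11802 CPM for the stress keratins, against 31.3 to 1353 in the other Col5a1CKO wounds, 9778 CPM for the basal keratins (47.4 to 1447), 1079 CPM for the suprabasal keratins (20.3 to 191), 9295 CPM for the cornified envelope (61.9 to 724), 1770.2 CPM for the lipid barrier (470.0 to 657), 6756 CPM for the desmosomes (69.7 to 884), 1080.5 CPM for the epidermal transcription factors (101 to 223) and 13931 CPM for the keratinocyte markers (75.1 to 1976). Among single genes Col5a1CKO 4 had Jup at 519 CPM (29.5 to 103 in the others), Krt1 at 586 CPM (4.10 to 79.1), Krt16 at 2626 CPM (8.15 to 293) and Krt17 at 1895 CPM (6.74 to 284).

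The other such values belonged to 5 other wounds. WT 2 had 43031 CPM of suprabasal keratins against 77066 to 81628 in the other WT wounds. WT 4 had 1884 CPM of cell cycle genes against 1722 to 1731, and WT 3 had 10549 CPM of respiratory chain subunits against 7722 to 8178. Col5a1CKO 1 had 2352 CPM of skeletal muscle markers against 19.0 to 160 in the other Col5a1CKO wounds, and Col5a1CKO 2 had 739.7 CPM of adipocyte markers against 293 to 333. Col5a1CKO 1 also held 0.300 CPM of Dct against 0 to 0.0414 and 0.0333 CPM of Slurp1 against 0, which are a few counts each.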

How the results depend on the processing

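The number of lower genes was 2065 and moved by over 1.5 times with a fold change of at least 3 (1352) and with no minimum fold (3776). The number of higher genes was 2706 and stayed within 1.5 times under every alternative, with 1937 and 3671 for these thresholds. With 1 library left out, 2194 to 2917 genes were higher and 1816 to 2378 lower, and DESeq2 gave 3190 and 2272. Other scalings moved the median of all genes to between -0.05 and 0.08, and testing all genes with at least 1 count moved it to 0.10. Col5a1 had a log2 fold change of -1.17, which was -1.69 to -0.78 with 1 library left out and was called in none of its alternatives. It reversed to 0.0754 within title numbers 4192 to 4223, where WT 1 and WT 2 are left out. Named genes kept their direction apart from Krt6b (0.50 within title numbers 4192 to 4223) and Mcpt4 (-0.31 without Col5a1CKO 2), neither of which was called, but calls were lost: 47 named genes lost theirs with at least 1 library left out and 62 under at least 1 other alternative, 52 of them within title numbers 4192 to 4223 and 25 with Y-linked RNA as a covariate. Among the 7-against-7 wounds, 1189 genes were called, 1857 with the library set by GC content as a covariate and 2096 with DESeq2, and the cause was not tested. With the replicate letter as a replicate block, 1324 were called there. Same-letter wounds had correlations of -0.45 to 0.57. Wounds of different letters were not compared, so these values cannot show whether the letters mark pairs, and they were not taken as such. No paired analysis was possible because the labels give the vehicle wounds no shared replicate numbers. Depth was 51211600 counts or more per library, and whether counting or the spread between wounds limits the calls was not tested.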
